A study of Homo sapiens with 24 samples.

Results

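Histone mRNA transcription and processing factors were followed here as 6 genes, SLBP, NPAT, LSM10, LSM11, CASP8AP2 and ERI1, which were chosen by name for their known roles, and all 6 were found among the 58884 genes listed in each expression table. The mRNAs of the replication-dependent histones are made in S phase and, unlike other mRNAs of animal cells, end in a conserved stem-loop in place of a poly(A) tail. NPAT switches on their transcription at the histone locus body, the U7 small nuclear ribonucleoprotein (snRNP) and the stem-loop binding protein SLBP direct the cleavage that forms their 3' end, and the exonuclease ERI1 acts on the stem-loop when they are degraded.

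HEK293T cells derive from human embryonic kidney, and the line carries the SV40 large T antigen. RNA was sequenced from 10 libraries, 2 per group, after rRNA depletion and enrichment for polyadenylated RNA, and was deposited as TPM, a transcript abundance per length that has the same sum in every library, in 2 tables that the labels call batches. Batch 1 held untreated wild-type HEK293T cells (WT) and untreated SETD2 knockout cells (KO). Batch 2 held untreated KO cells, KO cells given full-length SETD2 (SETD2 FL) and KO cells given its C-terminal segment from residue 1404 to residue 2564 (SETD2 C, named N3 in the labels). Its labels number the libraries KO 2 and 4, SETD2 FL 3 and 4, and SETD2 C 1 and 2. The reason for the gaps in these numbers is not given in the sources used here. SETD2 is the methyltransferase that trimethylates lysine 36 of histone H3. According to the methods, the constructs carried a GFP or Halo tag, were driven by a CMV promoter and were introduced by transfection, with RNA taken 72 h later. As the KO libraries were labelled untreated, the effect of transfection cannot be told apart from that of either construct when SETD2 FL or SETD2 C is set against KO. Whether the KO line is 1 clone and whether the libraries of a group came from separate cultures are not given in the sources used here, so the p-values measure only the spread between these libraries, which may be technical.

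SETD2 itself was at 12.6 and 14.8 TPM in the libraries labelled WT and at 16.2 and 16.3 TPM in those labelled KO of batch 1, so its transcript was not lower under the KO label and the direction between them rests on the labels. The paper reports that both SETD2 alleles are disrupted in the KO cells, and that H3K36me3 was absent there in western blots and ChIP. The H3K36me3 ChIP samples of the series were not analysed here. KO stands throughout for the libraries so labelled. In batch 2, SETD2 was at 12.0 and 12.2 TPM in the libraries labelled KO, at 439 and 422 TPM with SETD2 FL, and at 1329 and 1264 TPM with SETD2 C. The SETD2 transcript passed the limma threshold described further on between the constructs, at a log2 fold change of 1.46 towards SETD2 C. That difference was at least 2-fold. TPM is per transcript length and SETD2 C covers only part of SETD2, so these values may not compare the constructs directly. The paper, by contrast, reports their mRNA levels as not significantly different and the protein of SETD2 C as markedly higher. The shorter construct and a different level of its transcript or protein cannot be told apart here. Mitochondrially encoded genes took 2.93% and 3.37% of the TPM with SETD2 C, whereas they took 11.0% and 7.79% for SETD2 FL, and for KO of batch 2 their shares were 7.04% and 6.23%. Replicates correlated at 0.993 to 0.995 across genes. All 8 HEK293T markers were above 0 in every library, the lowest value being 0.62 TPM for LHX1, and by the test described further on 4 of them were called higher with SETD2 C than in KO (KRT8, NEFL and NEFM at least 2-fold, and KRT18) and 1, EN2, lower (log2 fold change -0.58). Set against SETD2 FL, 6 were called higher and again EN2 lower (-0.71). PTPRC, HBB and COL1A2 did not exceed 0.08 TPM in any library. ALB and PECAM1 did not exceed 0.38 TPM, and the fibroblast marker COL1A1 lay between 6.43 and 12.1 TPM and was called higher with SETD2 C than in KO (log2 fold change 0.55). The part of these markers in the results was not tested. In bulk RNA, fewer cells of a type and less RNA per cell cannot be told apart.

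The members formed an upper and a lower tier by level. SLBP had the highest mean TPM in all 5 groups, LSM10 came next and CASP8AP2 after it, and neither SLBP and LSM10 nor LSM10 and CASP8AP2 overlapped between libraries in any group. The order of the lower members changed between the tables. LSM11 ranked last in both groups of batch 1, with NPAT and ERI1 above it, whereas in all 3 groups of batch 2 LSM11 ranked directly below CASP8AP2 and NPAT ranked last. Neighbours in this order overlapped in some groups, namely CASP8AP2 with NPAT in WT, NPAT with ERI1 in both groups of batch 1, ERI1 with NPAT in SETD2 C and LSM11 with ERI1 in SETD2 FL. As the tables were made separately, the change in order between them was not tested.

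**Figure D1:**
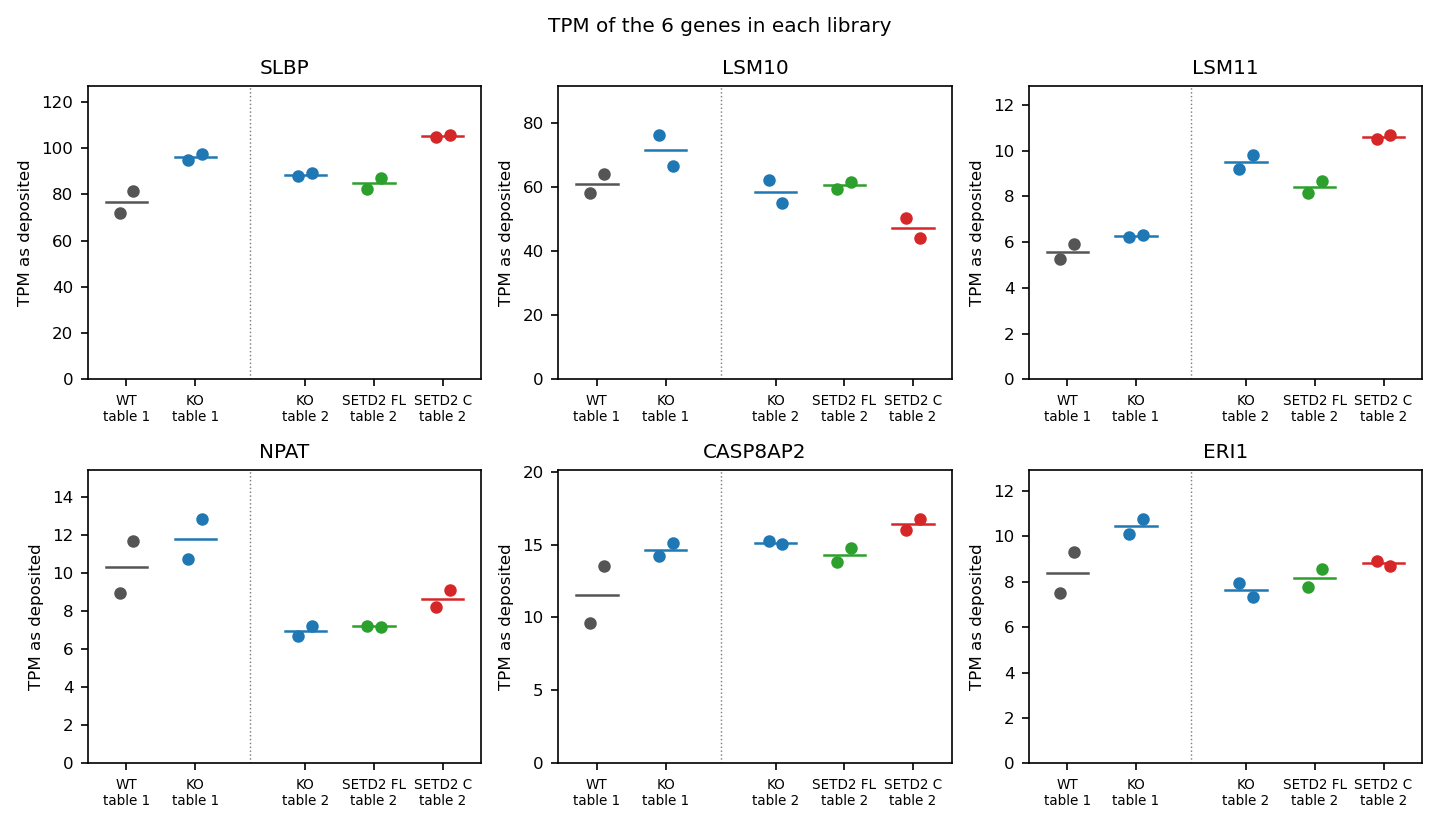
TPM as deposited (vertical axis, linear from 0) of each of the 6 genes in each of the 10 libraries, with points for libraries and a horizontal line for the mean of the 2 libraries of a group, and a dotted line between the tables. LSM10 was lowest in the SETD2 C libraries, at 50.5 and 44.1 TPM, while SLBP was highest there, at 105 and 106 TPM.

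For the comparisons, TPM was scaled between the libraries of a table by the median ratio over expressed genes, and log2(scaled TPM + 0.5) was fitted with limma over all protein-coding and lncRNA genes that reached 0.5 TPM in at least 2 libraries. A gene was called at an adjusted p of at most 0.05 (Benjamini-Hochberg over all genes tested) and, under a stricter rule, when it also differed at least 2-fold. All 6 members passed the filter on low values in both tables. Fold changes and differences below are on this log2 scale, which understates changes of genes at low TPM, and levels are TPM as deposited.

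In SETD2 C against KO, 1 of the 6 members was called, and it was lower. Among the 15929 genes tested in that comparison, 21.1% were called higher, 15.1% lower and 4.06% under the stricter rule, so 1 lower call among 6 is close to the background share. In SETD2 C against SETD2 FL, 1 member was called higher and 1 lower, beside 21.4% of genes higher, 16.8% lower and 3.79% under the stricter rule, shares again close to those among the 6. No member was called in SETD2 FL against KO, where 0.176% of genes were called higher, 0.0314% lower and 0.0816% under the stricter rule (limma). There, 1 of the 6 members had an unadjusted p under 0.05, beside 15.9% of all genes. In KO against WT, with 14741 genes tested, again no member was called, beside 1.32% of genes higher, 3.17% lower and 1.36% under the stricter rule (limma). Here too 1 member had an unadjusted p under 0.05, beside 24.9% of all genes. No member reached the stricter rule in any of the 4 comparisons. The comparisons within batch 2 share libraries and are not independent of each other. With 2 libraries per group, a lack of overlap was common. After scaling, 71.3% of all genes did not overlap in SETD2 C against KO and 72.3% in SETD2 C against SETD2 FL. In SETD2 FL against KO it was 48.2%, and in KO against WT 56.9%. Among the 6 members, 4, 5, 3 and 3 did not overlap in these comparisons, near those shares. A lack of overlap is therefore given below only as a description.

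**Figure D2:**
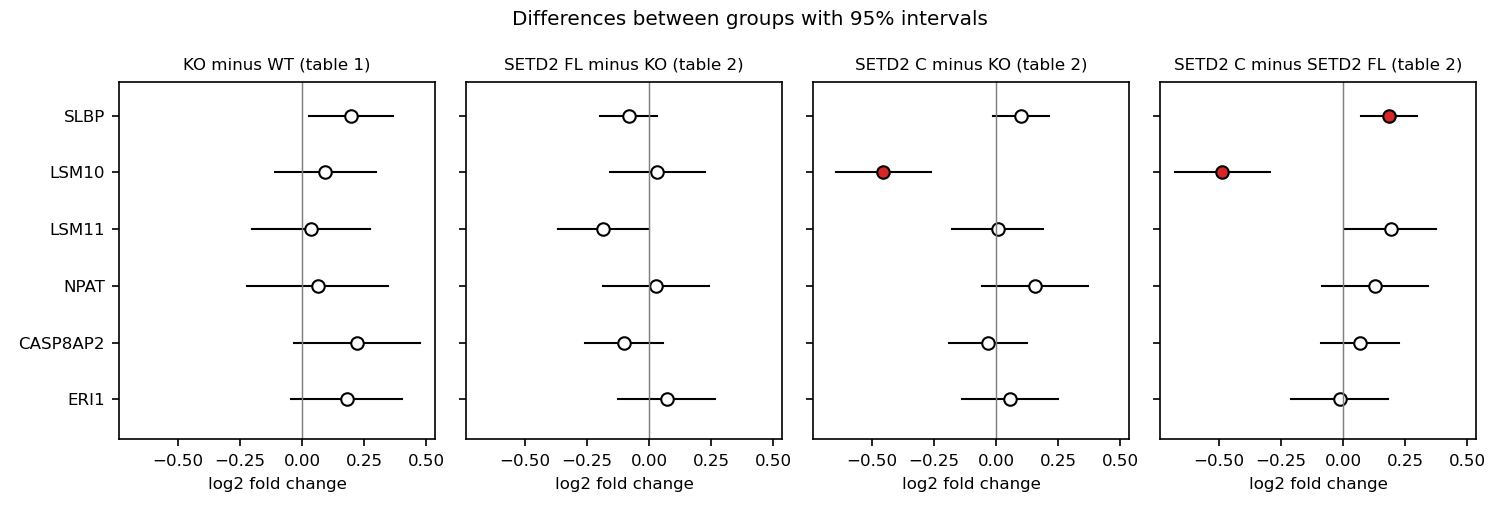
Differences of the 6 genes between groups (horizontal axis, log2 fold change) in the 4 comparisons, with points for estimates, bars for 95% intervals and red points for genes called at an adjusted p of at most 0.05. LSM10 was called in both comparisons with SETD2 C, at -0.45 and -0.49, and SLBP only against SETD2 FL, at 0.18, so 3 of the 24 points are red.

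LSM10 encodes an Sm-like protein that is found in the U7 snRNP and not in the spliceosomal snRNPs, and it pairs with LSM11 to take the places of SNRPD1 and SNRPD2 in the ring around the U7 RNA. In GRCh38, the gene (ENSG00000181817) spans chromosome 1 from 36391238 to 36397908 (minus strand), and the reference transcript, of 2 exons, has 860 nt and an open reading frame for 123 residues. Its promoter is shown because LSM10 was the member called in both comparisons with SETD2 C. The 250 bases before its start in RefSeq (GRCh38.p14, chr1:36397909-36398158, minus strand) are printed with matches to the motifs named further on in capitals.
LSM10: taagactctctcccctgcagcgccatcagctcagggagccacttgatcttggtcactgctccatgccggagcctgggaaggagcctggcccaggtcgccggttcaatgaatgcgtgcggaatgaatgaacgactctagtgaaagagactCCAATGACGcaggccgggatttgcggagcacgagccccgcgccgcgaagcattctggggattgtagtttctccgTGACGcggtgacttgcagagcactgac

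LSM10 was at 62.3 and 54.9 TPM in KO, at 59.6 and 61.8 TPM with SETD2 FL, and at 50.5 and 44.1 TPM with SETD2 C in batch 2. Both SETD2 C libraries lay below the other 4 libraries of the table, while KO and SETD2 FL overlapped. Against KO, LSM10 was lower with SETD2 C by a log2 fold change of -0.45 (standard error 0.08, 95% interval -0.65 to -0.26, adjusted p = 0.00501 from limma), which corresponds to 0.730 of the KO level. Set against SETD2 FL, the log2 fold change was -0.49 (standard error 0.08, 95% interval -0.68 to -0.30, adjusted p = 0.00331 from limma), or 0.714 of the SETD2 FL level. The call held in all 16 alternative settings tried in each of these comparisons, the log2 fold change against KO staying between -0.56 and -0.31 and that against SETD2 FL between -0.60 and -0.36. With mitochondrially encoded genes and SETD2 removed before rescaling, LSM10 remained lower, at -0.36 against KO and -0.45 against SETD2 FL. The reference transcript of LSM10 has a GC content of 57.8%, the highest of the members, and with an adjustment for GC content the differences were -0.46 and -0.49.

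Between SETD2 FL and KO, LSM10 differed by 0.03 on the log2 scale (95% interval -0.16 to 0.22, adjusted p = 0.880 from limma). In batch 1, LSM10 was at 58.1 and 64.2 TPM in WT and at 76.4 and 66.7 TPM in KO. The KO libraries lay above the WT libraries as deposited and overlapped with them after scaling, with a log2 fold change of 0.09 (95% interval -0.11 to 0.30, adjusted p = 0.531 from limma).

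LSM11 encodes the other U7-specific ring protein, whose extended amino-terminal part recruits the cleavage factors. It (ENSG00000155858) lies on chromosome 5 from 157743712 to 157760709 on the plus strand, with 4 exons, 6567 nt and 360 residues. In batch 2, LSM11 was at 9.21 and 9.82 TPM in KO, at 8.17 and 8.69 TPM with SETD2 FL, and at 10.5 and 10.7 TPM with SETD2 C. As deposited, the SETD2 C libraries were the highest and the SETD2 FL libraries the lowest, without overlap, but after scaling SETD2 C and KO overlapped. LSM11 thus differed by 0.01 between SETD2 C and KO (95% interval -0.18 to 0.19, adjusted p = 0.948 from limma). Against SETD2 FL the difference was 0.19 (95% interval 0.01 to 0.38, adjusted p = 0.0896 from limma), and it passed the threshold only in the fit of unscaled TPM among the 16 alternatives (0.31, adjusted p = 0.0182). It was the member with an unadjusted p under 0.05 in SETD2 FL against KO, with a log2 fold change of -0.18 (unadjusted p of 0.0487, adjusted p = 0.311 from limma). In batch 1, LSM11 was at 5.25 and 5.91 TPM in WT and at 6.22 and 6.31 TPM in KO, and the groups overlapped once scaled, at a difference of 0.04 (95% interval -0.20 to 0.27).

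The ratio of LSM10 to LSM11 within a library does not depend on how libraries are scaled. This ratio of TPM was 4.80 and 4.12 in the SETD2 C libraries of batch 2, compared to 7.30 and 7.11 in the SETD2 FL libraries and 6.76 and 5.60 in the KO libraries. The SETD2 C libraries held less LSM10 per LSM11 than any other library of batch 2, with group means of 4.46 ± 0.48 for SETD2 C, 6.18 ± 0.83 for KO and 7.20 ± 0.13 for SETD2 FL (SD, n = 2). In batch 1 the ratio was 11.1 and 10.9 in WT and 12.3 and 10.6 in KO, and these groups overlapped. These ratios are given as a description, without a test.

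**Figure D3:**
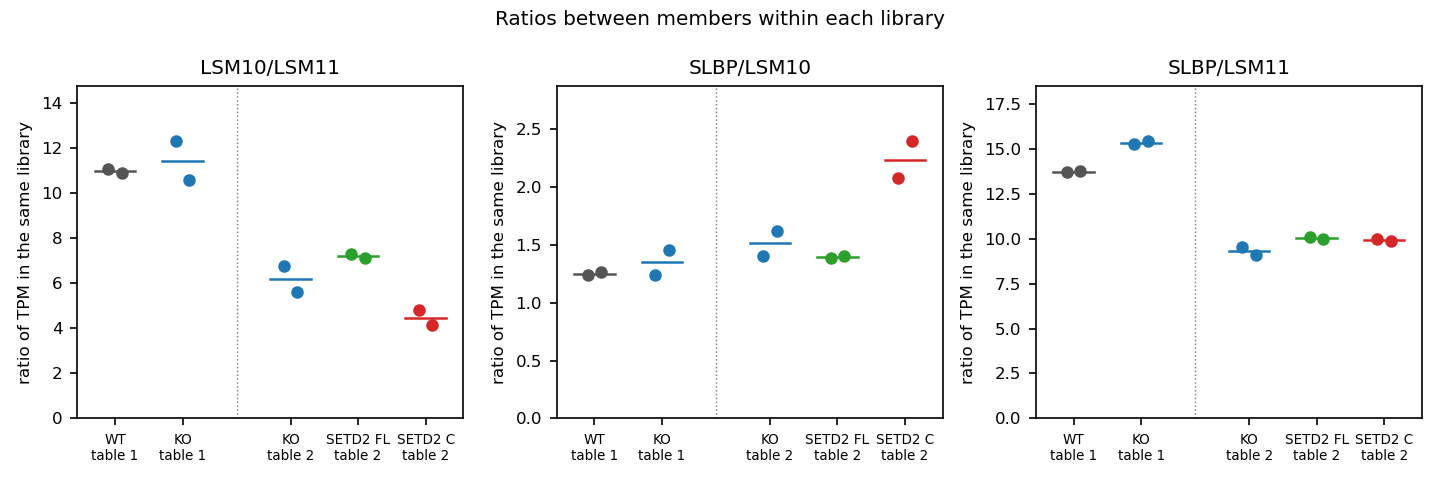
Ratios between the TPM of pairs of members within the same library (vertical axes, linear from 0), with points for libraries and lines for group means. LSM10/LSM11 was lowest and SLBP/LSM10 highest in the SETD2 C libraries (group means 4.46 and 2.24), whereas SLBP/LSM11 was 9.93 there and 10.0 with SETD2 FL.

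The spliceosomal counterparts of these ring proteins had smaller differences, although the contrast between genes was not tested. SNRPD1 was at 397 and 370 TPM in KO, at 396 and 404 TPM with SETD2 FL, and at 373 and 350 TPM with SETD2 C. It was called lower with SETD2 C, by a log2 fold change of -0.23 against KO (adjusted p = 0.0149, limma) and of -0.28 against SETD2 FL (adjusted p = 0.00706, limma). As deposited, the SNRPD1 values of SETD2 C and KO overlapped, and only after scaling did they not, so the size of that difference depends on the scaling. SNRPD2 lay between 798 and 871 TPM in all libraries of batch 2 and was not called, SETD2 C being lower than KO by a log2 fold change of -0.15 (adjusted p = 0.0898, limma). The ratio of LSM10 to SNRPD1 was 0.135 and 0.126 in the SETD2 C libraries, compared to 0.150 and 0.153 for SETD2 FL and 0.157 and 0.148 for KO. LSM10 was therefore lower with SETD2 C also per unit of SNRPD1, without overlap with KO or SETD2 FL, which overlapped with each other.

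SLBP encodes the stem-loop binding protein, which stays with histone mRNA from processing to translation. It (ENSG00000163950) lies on chromosome 4 from 1692731 to 1712344 on the minus strand, with 8 exons, 1810 nt and 270 residues. Its promoter is shown for comparison with that of LSM10, since SLBP was the member called in the other direction. The 250 bases before its start in RefSeq (GRCh38.p14, chr4:1712320-1712569, minus strand) carry the same capitals, and the GENCODE gene begins within this window.
SLBP: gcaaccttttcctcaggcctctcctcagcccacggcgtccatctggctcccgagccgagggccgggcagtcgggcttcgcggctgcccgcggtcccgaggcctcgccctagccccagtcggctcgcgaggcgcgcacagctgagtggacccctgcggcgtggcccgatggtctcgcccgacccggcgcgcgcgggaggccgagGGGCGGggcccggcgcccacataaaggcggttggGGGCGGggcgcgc

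SLBP was at 87.7 and 89.1 TPM in KO, at 82.4 and 86.9 TPM with SETD2 FL, and at 105 and 106 TPM with SETD2 C. The SETD2 C libraries were the highest and the SETD2 FL libraries the lowest, and no groups overlapped. In the SETD2 C libraries SLBP was called higher than in the SETD2 FL libraries, by a log2 fold change of 0.18 (standard error 0.05, 95% interval 0.07 to 0.30, adjusted p = 0.0203 from limma), or 1.14-fold. On unscaled TPM the difference was 0.31. The call did not hold in 6 of the 16 alternatives, including the omission of any 1 of the 4 libraries compared (adjusted p from 0.0616 to 0.0905, limma). It was also lost with an adjustment for GC content (0.13, adjusted p = 0.0635) and without a trend in the variance (adjusted p = 0.0711). Against KO the difference was 0.10 (95% interval -0.01 to 0.22, adjusted p = 0.138 from limma). That difference was called under 3 other scalings, with unscaled TPM (0.25, adjusted p = 0.00931), with quantile normalization (0.16, adjusted p = 0.0482) and with TPM rescaled without mitochondrially encoded genes and SETD2 (0.20, adjusted p = 0.0165). The difference between SETD2 FL and KO was -0.08 (adjusted p = 0.447, limma).

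In batch 1, SLBP was at 71.9 and 81.3 TPM in WT and at 94.8 and 97.3 TPM in KO. Both KO libraries lay above both WT libraries, also after scaling. The log2 fold change was 0.20 (95% interval 0.03 to 0.37, unadjusted p of 0.0275, adjusted p = 0.149 from limma), the only unadjusted p under 0.05 among the members in this comparison. Mitochondrially encoded genes took 23.2% and 14.1% of the TPM in WT and 12.0% and 12.4% in KO, and with these genes and SETD2 removed before rescaling the difference was 0.22 (adjusted p = 0.150, limma). In batch 2 the ratio of SLBP to LSM10 was 2.08 and 2.40 in the SETD2 C libraries, compared to 1.38 and 1.41 for SETD2 FL and 1.41 and 1.62 for KO. The balance between these members thus lay furthest towards SLBP with SETD2 C, without overlap with either other group.

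Promoters of 5 of the 6 members were matched by symbol in the RefSeq table, the exception being ERI1. The motifs searched, on both strands, were the CCAAT box (CCAAT), the GC box (GGGCGG), the TATA box (TATAAA), a pair of E2F sites (GGCGGGAA and TTTGGCGC) and the cyclic AMP response half-site (TGACG). The LSM10 promoter held 1 CCAAT box, which began 101 bases before the start and shared its last base with a TGACG motif, and a second TGACG motif 27 bases before the start. That of SLBP held none of these but 2 GC boxes, beginning 47 and 13 bases before the start, and neither promoter held a TATA box or an E2F site as written here. CASP8AP2 was the only member of the 5 with E2F sites, 1 of each kind, beside 2 CCAAT boxes and 2 GC boxes. NPAT held 2 CCAAT boxes, 2 GC boxes and 1 TGACG motif, and LSM11 held 1 GC box. Among the 35116 promoters of the table, 32.0% held a CCAAT box, 42.6% a GC box, 10.7% a TATA box, 21.2% a TGACG motif, 2.7% the first E2F site and 0.5% the second. These matches describe letters within the window and were not tied to the differences in expression.

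NPAT encodes the coactivator that cyclin E and CDK2 phosphorylate at the histone locus body. It (ENSG00000149308) lies on chromosome 11 from 108157215 to 108222638 on the minus strand, with 18 exons, 6113 nt and 1427 residues. In batch 2, NPAT was at 6.70 and 7.20 TPM in KO, at 7.23 and 7.14 TPM with SETD2 FL, and at 8.20 and 9.10 TPM with SETD2 C. The SETD2 C libraries were the highest of the table and KO and SETD2 FL overlapped. The difference between SETD2 C and KO was 0.16 (95% interval -0.06 to 0.37, adjusted p = 0.219 from limma) and that between SETD2 C and SETD2 FL was 0.13 (95% interval -0.08 to 0.34, adjusted p = 0.299 from limma). With 1 library left out the former ranged from 0.09, without SETD2 C 2, to 0.22 and the latter from 0.06, again without SETD2 C 2, to 0.20. Only in the fit of unscaled TPM did the difference from KO pass the threshold (0.30, adjusted p = 0.0351). In batch 1, NPAT was at 8.95 and 11.7 TPM in WT and at 10.7 and 12.8 TPM in KO, and the groups overlapped, with a difference of 0.06 (95% interval -0.22 to 0.35).

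CASP8AP2, also called FLASH, is a large scaffold protein that binds LSM11 and brings the cleavage complex to the U7 snRNP. The gene (ENSG00000118412) lies on chromosome 6 from 89829894 to 89874436 on the plus strand, with 9 exons, 6088 nt and 1964 residues. It was at 15.3 and 15.0 TPM in KO, at 13.8 and 14.8 TPM with SETD2 FL, and at 16.0 and 16.8 TPM with SETD2 C. The direction between SETD2 C and KO depended on scaling, because SETD2 C was higher as deposited and slightly lower after scaling (-0.03, 95% interval -0.19 to 0.12, adjusted p = 0.740 from limma). The differences were 0.07 between SETD2 C and SETD2 FL (adjusted p = 0.446, limma) and -0.10 between SETD2 FL and KO (adjusted p = 0.499, limma). In batch 1, CASP8AP2 was at 9.64 and 13.5 TPM in WT and at 14.2 and 15.1 TPM in KO. The groups did not overlap, and the difference of 0.22 was not called (95% interval -0.03 to 0.48, adjusted p = 0.251 from limma). It was 0.10 without WT 1 and 0.34 without WT 2.

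ERI1 encodes the 3' to 5' exonuclease that trims and degrades the stem-loop end of histone mRNA. It (ENSG00000104626) lies on chromosome 8 from 9002147 to 9116746 on the plus strand, with 7 exons, 4521 nt and 349 residues. ERI1 was at 7.94 and 7.33 TPM in KO, at 7.78 and 8.54 TPM with SETD2 FL, and at 8.93 and 8.71 TPM with SETD2 C. The SETD2 C libraries were the highest as deposited, whereas after scaling all 3 groups overlapped. Its differences within batch 2 were 0.06 between SETD2 C and KO, -0.01 between SETD2 C and SETD2 FL and 0.07 between SETD2 FL and KO, with adjusted p-values of 0.624, 0.911 and 0.711 (limma). In batch 1, ERI1 was at 7.50 and 9.31 TPM in WT and at 10.1 and 10.8 TPM in KO. The KO libraries were the higher, without overlap, at a difference of 0.18 that was not called (95% interval -0.04 to 0.40, adjusted p = 0.279 from limma). All 6 members had a positive difference in KO against WT, between 0.04 and 0.22, beside a median of -0.01 over all genes tested, but the sign turned for LSM11 with an adjustment for transcript length (-0.01) and for NPAT without WT 1 (-0.01) or KO 2 (-0.07).

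**Figure D4:**
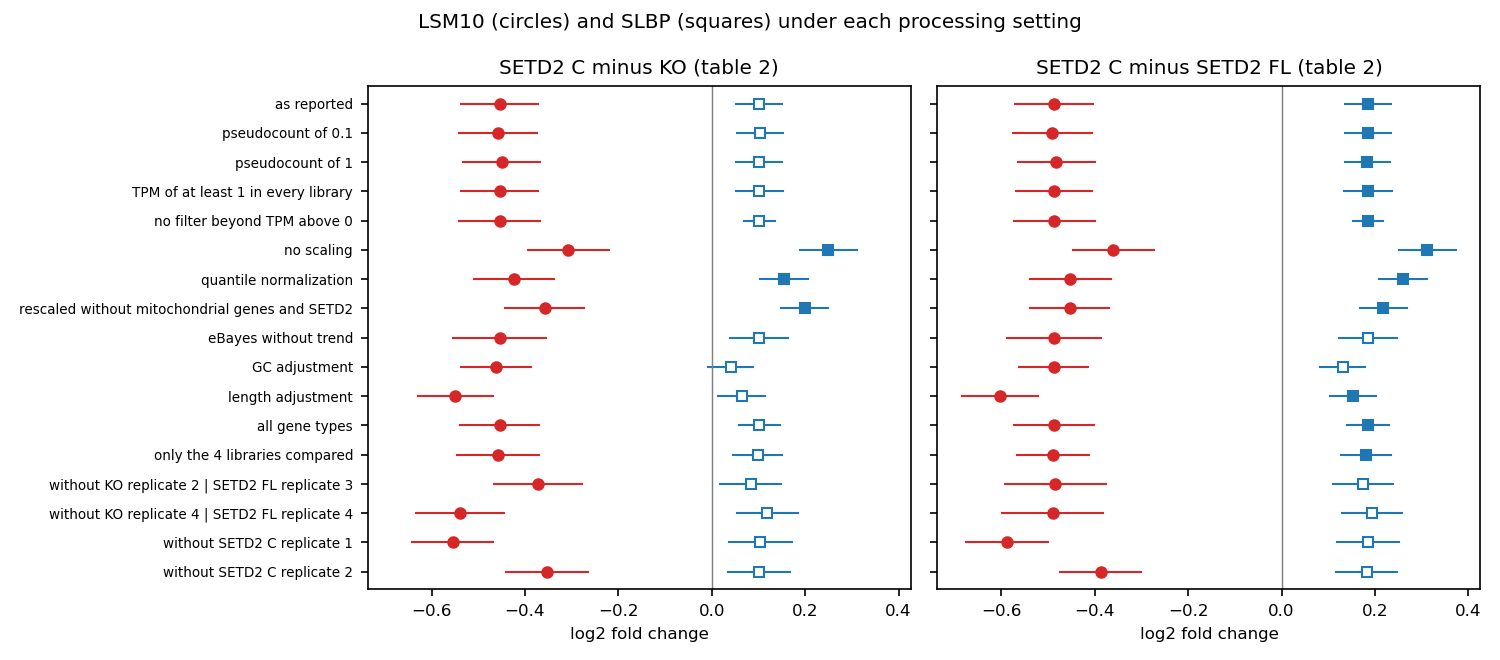
Log2 fold changes (horizontal axis) of LSM10 (red circles) and SLBP (blue squares) with SETD2 C under the setting reported and each of 16 alternatives, with bars of 1 standard error and filled symbols for an adjusted p of at most 0.05. LSM10 was filled and negative throughout, from -0.56 to -0.31 against KO and from -0.60 to -0.36 against SETD2 FL, whereas SLBP was open in 6 of the 16 alternatives against SETD2 FL.

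The SLBP and NPAT genes each stand head to head with a neighbour on the other strand, so the neighbours were added by their position. The starts of SLBP and TACC3 are 539 nt apart and those of NPAT and ATM 406 nt, and no exons overlap between them. TACC3, a mitotic spindle protein, was at 63.8 and 59.9 TPM in KO, at 71.1 and 75.0 TPM with SETD2 FL, and at 79.1 and 75.4 TPM with SETD2 C. It was called higher with SETD2 C than in KO (0.17, adjusted p = 0.0454, limma), whereas between SETD2 C and SETD2 FL, where SLBP was called, it differed by -0.05 (adjusted p = 0.541, limma). ATM, the kinase that signals DNA breaks, was at 22.3 and 22.3 TPM in KO, at 21.4 and 17.0 TPM with SETD2 FL, and at 25.1 and 26.6 TPM with SETD2 C. Like NPAT, ATM was not called in any comparison, and its difference between SETD2 C and SETD2 FL was 0.31 (adjusted p = 0.0674, limma). For each member, the genes most like it in pattern were taken by Pearson correlation of log2 values over the 10 libraries, centred within each table, among 14530 genes tested in both. Those reported here were FOXF1 and LARP1B for SLBP (0.967 and 0.955), SGTB and TMTC2 for NPAT (0.954 and 0.948), UBALD1 and GAK for LSM10 (0.985 and 0.982), TMEM230 and SNX3 for LSM11 (0.977 and 0.970), KBTBD7 for CASP8AP2 (0.978), and PRMT5 and PDCL3 for ERI1 (0.949 and 0.943). These correlations describe libraries that share scaling and groups, and no test was made of them.

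The other genes of the pathway were grouped by role into lists of 56 genes in all, of which 55 passed the filter. With SETD2 C, 4 of the 55 were called higher and 14 lower against KO, and 9 higher and 17 lower against SETD2 FL, with medians of -0.09 and -0.10 beside 0.05 and 0.04 over all genes tested. Against KO these calls were 7.3% higher and 25.5% lower, beside 21.1% and 15.1% of all genes, and against SETD2 FL they were 16.4% higher and 30.9% lower, beside 21.4% and 16.8%. The background itself depends on the filter and on the scaling. Among the 12925 genes at 1 TPM or more in every library, 2613 were called higher and 2427 lower against KO. Against SETD2 FL these numbers were 2809 and 2755. Without scaling, 5507 of all genes were called higher and 1115 lower against KO, and 5190 and 1508 against SETD2 FL. The pathway lists then gave 16 calls in each comparison, whose direction was not counted. The split into higher and lower calls in these lists therefore holds only for the scaling used. The lists were also chosen with earlier results of these data known. In the lists of 6 genes a single call is already 16.7%, near these background shares, so 1 or 2 calls in the short lists are not read as results about them. None reached the stricter rule. Neither SETD2 FL against KO nor KO against WT gave a call in these lists (limma). There, 10 and 13 of the 55 genes had an unadjusted p under 0.05, beside 15.9% and 24.9% of all genes. The RNA of the U7 snRNP itself, RNU7-1, was listed at 0 TPM in all 10 libraries, so its level was not measured here.

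**Figure D5:**
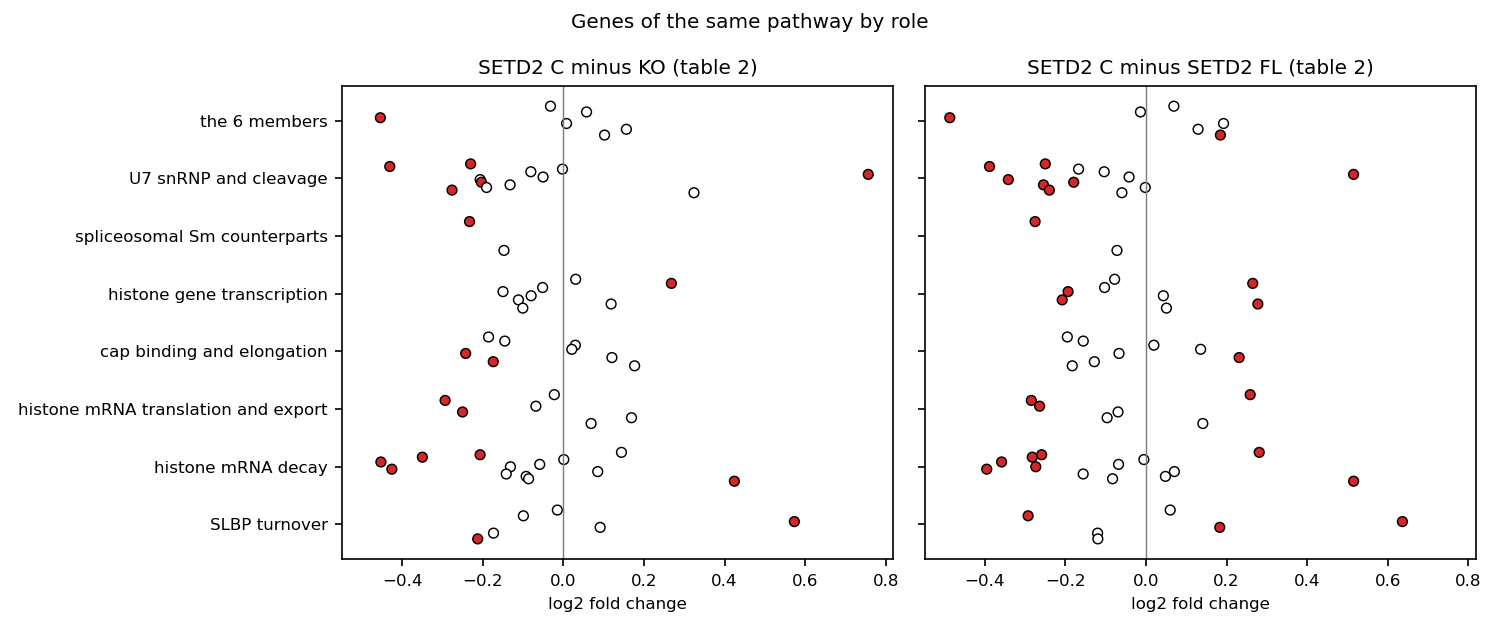
Log2 fold changes (horizontal axes) of the 6 members and of the other genes of the pathway, by role, with SETD2 C against KO (left) and against SETD2 FL (right). Each point is a gene, and red points are called at an adjusted p of at most 0.05, among them 14 genes lower and 4 higher outside the members against KO.

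Among the 12 tested genes of the U7 snRNP and the cleavage complex, 4 were lower and 1 higher with SETD2 C against KO, and 6 lower and 1 higher against SETD2 FL. The lower calls were 33.3% of the list against KO, beside 15.1% of all genes, and 6 of 12 against SETD2 FL, beside 16.8%. The higher calls were 8.3% in each, beside 21.1% and 21.4%. CPSF3, the endonuclease that cuts histone pre-mRNA, was at 62.0 ± 1.4 TPM in KO, 61.1 ± 4.2 TPM with SETD2 FL and 50.9 ± 3.2 TPM with SETD2 C (SD, n = 2). It fell by 0.43 against KO and by 0.39 against SETD2 FL (adjusted p = 0.00231 and 0.00303, limma). The scaffold SYMPK was lower against KO by a log2 fold change of -0.28 (adjusted p = 0.0154, limma), and the shared ring protein SNRPD3 against SETD2 FL by -0.34 (adjusted p = 0.00835, limma). MBLAC1, a further nuclease of histone pre-mRNA, went the other way, from 1.23 ± 0.03 TPM in KO to 2.71 ± 0.67 TPM with SETD2 C (0.76, adjusted p = 0.0121, limma). Against SETD2 FL its difference was 0.52 (adjusted p = 0.0469, limma).

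In histone gene transcription, 1 of 8 genes was higher and none lower against KO, and 2 were higher and 2 lower against SETD2 FL. CCNE2, a cyclin E that activates CDK2 and is also in the S phase list, was the gene higher in both, by 0.27 in each (adjusted p = 0.0330 and 0.0328, limma). HINFP, which activates histone H4 genes, was higher against SETD2 FL by 0.28 and GON4L, a chromatin regulator, lower by -0.21 (adjusted p = 0.0152 and 0.0382, limma). Of the 8 cap-binding and elongation genes, 2 were lower against KO, the NELF subunits NELFB (-0.24, adjusted p = 0.0216, limma) and NELFE (-0.17, adjusted p = 0.0253, limma). Against SETD2 FL, 1 was higher, NELFCD of the same complex (0.23, adjusted p = 0.0107, limma).

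Of the 6 translation and export genes, 2 were lower against KO, the RNA helicase DDX19B (-0.29, adjusted p = 0.0294, limma) and MIF4GD, a partner of SLBP in translation (-0.25, adjusted p = 0.0405, limma). Against SETD2 FL, 1 was higher, CTIF (0.26, adjusted p = 0.0205, limma), and 2 were lower, DDX19B and the initiation factor EIF4G1 (-0.29 and -0.26, adjusted p = 0.0313 and 0.00605, limma). Among the 13 genes of histone mRNA decay, 4 were lower and 1 higher against KO, and 5 lower and 2 higher against SETD2 FL. Lower calls made up 30.8% and 38.5% of this list, beside the same 15.1% and 16.8%, and higher calls 7.7% and 15.4%. LSM4 and LSM7, subunits of the cytoplasmic LSM ring that is distinct from the U7 ring, fell by 0.45 and 0.43 against KO (adjusted p = 0.000772 and 0.000678, limma). LSM4 went from 289 ± 11 TPM in KO to 234 ± 3 TPM with SETD2 C, and LSM7 from 307 ± 8 to 253 ± 3 TPM (SD, n = 2). Against SETD2 FL, LSM7 was lower by -0.40 and LSM4 by -0.36 (adjusted p = 0.000777 and 0.00161, limma). XRN1, the 5' to 3' exonuclease, was higher in both, by 0.42 and 0.52 (adjusted p = 0.0167 and 0.00714, limma).

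Genes that act on the turnover of SLBP protein were few, with 1 higher and 1 lower of 6 against KO, and 2 higher and 1 lower against SETD2 FL. CDK1, the mitotic kinase that marks SLBP for degradation with cyclin A, rose from 113 ± 4 TPM in KO and 110 ± 1 TPM with SETD2 FL to 187 ± 8 TPM with SETD2 C (SD, n = 2). The log2 fold changes were 0.57 and 0.64 (adjusted p = 0.000409 and 0.000237, limma). CCNF, the F-box protein cyclin F, was lower and the kinase CSNK2A1 higher against SETD2 FL (-0.29 and 0.18, adjusted p = 0.0222 and 0.0339, limma). In the S phase list of the Seurat package, without SLBP and CASP8AP2, which belong to it, 6 of 41 genes were higher and 10 lower with SETD2 C against KO, and 4 higher and 11 lower against SETD2 FL, with medians of -0.04 and 0.00. These were 14.6% higher and 24.4% lower against KO, beside 21.1% and 15.1% of all genes, and 9.8% higher and 26.8% lower against SETD2 FL, beside 21.4% and 16.8%.

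The substrates of these factors, the replication-dependent histone genes, were read only in part, as the libraries were enriched for polyadenylated RNA, which most of these mRNAs are not. Their 66 listed genes summed to 470.5 and 499.6 TPM in the SETD2 C libraries, compared to 199 and 218 TPM for SETD2 FL and 216 and 261 TPM for KO. A few genes made up much of these sums. With SETD2 C the means were 92.0 TPM for HIST2H4B, 74.9 TPM for HIST2H4A and 74.6 TPM for HIST3H2A. Replicates could differ, HIST2H4A being at 34.0 and 58.0 TPM in the KO libraries. Only 35 of the 66 passed the filter, and 29 would have passed on the KO and SETD2 FL libraries alone. Among these 29, 16 were called higher and none lower against KO, and 15 higher and none lower against SETD2 FL, beside 21.1% and 21.4% of all genes called higher. The other 6 passed only with the SETD2 C libraries counted, so 21 and 17 higher calls over all 35 are given as a description. Over the 35, none was called in SETD2 FL against KO or, among 24 tested, in KO against WT (limma). Unadjusted p-values under 0.05 were found for 8 of the 35 and 4 of the 24, beside 15.9% and 24.9% of all genes. In batch 1 the same sum was 88.1 and 91.8 TPM in WT and 109 and 100.2 TPM in KO. The SETD2 C libraries therefore held the highest summed histone TPM, the highest SLBP and the lowest LSM10 of batch 2. Whether these levels are linked was not tested.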

How the data were processed

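RNA from 10 HEK293T libraries was analysed, and 14 ChIP samples were not analysed here. The authors aligned reads with STAR 2.6.1c, estimated abundance with RSEM 1.3.0 and deposited TPM per gene without normalization between libraries (tools from the methods and the submitters' processing notes). The strand setting of the counting is not given in the sources used here. TPM keeps no depth, so no counting error could be derived. The authors' edgeR analysis of counts was not used.

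Gene types, positions and transcripts came from GENCODE 44 on GRCh38, and of the 58884 genes 58472 were matched by identifier and 21 by symbol, leaving 391 unmatched. TPM was scaled by median ratios, and log2(scaled TPM + 0.5) was tested in limma (version 3.58.1, R version 4.3.3) by lmFit, contrasts.fit and eBayes with trend, in 1 fit per table. The procedure was also run on simulated data in which few genes were shifted. That run does not test the scaling where many genes differ, as they did with SETD2 C. The genes named were the 6 members, their ring counterparts, SETD2, in each role and comparison the 3 largest differences at an adjusted p of at most 0.05 and every gene also passing 2-fold, and the 2 genes most like each member. Of the genes this rule gave, 2 are not reported here. Members and lists were chosen with earlier results of these data known. Head-to-head neighbours were chosen by position. Alternatives covered pseudocounts of 0.1 and 1, filters, scalings, variance trend, samples fitted, replicate block and each library left out. After seeing the data, adjustments for GC content and for length and a fit of all gene types were added.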

Additional observations from a re-analysis of the deposited data

How the results depend on the processing

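Of 384 recomputed differences of members, 354 kept direction and side of the threshold, 6 lost a call, 5 gained one and 19 changed sign, none of which was called in either sign. The causes of the changes were not tested unless the setting itself removes libraries or genes. TPM gives no depth, and 2 libraries per group limit the precision of every value.

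Without scaling, the median of all genes moved to 0.18 in SETD2 C against KO, 0.16 in SETD2 C against SETD2 FL and 0.11 in KO against WT, and with TPM rescaled without mitochondrially encoded genes and SETD2 to 0.14 in SETD2 C against KO. The share of calls that were higher then went from 58.3% to 83.2% (unscaled), 75.7% (rescaled), 46.9% (quantile normalization), 46.6% (GC adjustment) and 46.5% (length adjustment) in SETD2 C against KO. For SETD2 C against SETD2 FL it went from 56.0% to 77.5% unscaled and to 45.6% with length adjustment, and in KO against WT from 29.3% to 53.3% unscaled.

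Called members in SETD2 C against KO numbered 1, and 3 without scaling, 2 with quantile normalization and 2 when rescaled. Set against SETD2 FL they numbered 2, and 3 without scaling (LSM11 being added), 1 without the variance trend, 1 with GC adjustment and 1 without any 1 of the 4 libraries. Pathway calls in SETD2 C against KO numbered 18, but 8 without the trend, 28 with GC adjustment and 7 to 12 with a library left out (KO 2 giving 7, SETD2 C 2 giving 8, SETD2 C 1 giving 11 and KO 4 giving 12). Set against SETD2 FL they numbered 26, but 16 without scaling, 17 without the trend and 11 to 14 with a library left out. In KO against WT, where none was called, the replicate block gave 1 and leaving out WT 2 gave 2, so the range over left-out libraries was 0 to 2. Called histone genes went from 21 to 11 in SETD2 C against KO and from 17 to 10 in SETD2 C against SETD2 FL at 1 TPM in every library, which tests fewer genes, and in SETD2 C against KO to 13 without SETD2 C 2, the range over left-out libraries being 13 to 19. SETD2 FL against KO had 1 instead of 0 under that filter and 1 without scaling. In KO against WT there was 1 without scaling, 1 with length adjustment, 1 with the replicate block and 1 without WT 1, against 0 otherwise.

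The sign in SETD2 C against KO changed for CASP8AP2 (0.112 unscaled, 0.062 rescaled), LSM11 (-0.045 with quantile normalization, -0.066 with GC and -0.041 with length adjustment, -0.044 to 0.057 with a library left out) and ERI1 (-0.026 with quantile normalization, -0.057 with GC adjustment). With a library left out, NPAT ranged from -0.029 to 0.082 and LSM10 from -0.051 to 0.115 in SETD2 FL against KO. Against SETD2 FL, ERI1 changed sign with SETD2 C (0.107 unscaled, 0.018 rescaled, -0.051 to 0.022 with a library left out), as did CASP8AP2 (-0.039 with GC adjustment). KO against WT changed sign for LSM11 (-0.009 with length adjustment) and NPAT (-0.073 to 0.202 with a library left out).

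Calls over all genes ranged from 3064 to 6622 around 5762 in SETD2 C against KO, from 3437 to 6698 around 6084 in SETD2 C against SETD2 FL, from 2 to 60 around 33 in SETD2 FL against KO and from 86 to 1269 around 661 in KO against WT. The replicate block gave the 1269 and called 0 members. The deviations of same-numbered libraries correlated at 0.147 over genes and those of differently numbered ones at -0.147, and with 2 pairs these are opposite by construction, so this does not settle whether the numbers pair the libraries.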
